A study of Mus musculus with 6 samples.

Results

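CD45-negative lung cells of untreated Ccr2 knockout mice were compared with the same cells of untreated WT mice, by taking the 2 arrays labelled day 0 from the 6 arrays of the series. The study profiled lung cells of both genotypes before and after aspiration of silica, with 1 array for each genotype untreated and at days 28 and 40, and the 4 arrays of silica-treated mice serve here only to set the untreated pair in context. The WT group was C57BL/6J, and the knockout group, labelled Ccr2KO, was the strain B6.129S4-Ccr2tm1Ifc/J, which carries a targeted Ccr2 allele made in cells of another strain and is otherwise on a B6 background. Mice of both genotypes entered the experiments at 7 to 9 weeks of age. Perfused lungs were digested with enzymes, red cells were taken out on Percoll, and cells without the leukocyte surface protein CD45 were kept by magnetic sorting. Each group was 1 pool of RNA from 3 biological replicates, labelled from 200 ng with Cy3 and hybridised to 1 one-colour array, so the spread between mice within a genotype was not measured. Whether the mice were littermates, and their sex, is not stated in the labels. Because each genotype had 1 array, every untreated difference below compares 2 pools and carries no p-value.

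CCR2 is a chemokine receptor found mainly on inflammatory monocytes. Its ligands, made by stromal, endothelial and myeloid cells, draw these monocytes out of the bone marrow and into tissue, and mice without CCR2 have few of them in the blood. The sort was for the other side of the tissue, namely epithelium, endothelium, fibroblasts and other stroma, and the comparison shows how that fraction, and the leukocyte RNA that came with it, differed between the genotypes at rest.

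Levels are log2 of the scanner's processed signal minus the 75th percentile of the same array, so a level of 0 is as bright as that percentile. The lowest signals that the scanner software called well above background lay at -5.58 in WT and -5.66 in Ccr2KO. A difference is Ccr2KO minus WT, and a gene is counted as higher or lower where the 2 arrays were at least 2-fold apart. An error given after ± is the scanner software's own estimate for that difference, which covers the measurement of the 2 spots and not the variation between mice. Between repeated spots of 383 probes the median SD of a single-spot difference was 0.0978 log2, and its 95th percentile was 0.668.

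The label was borne out in part. The type 2 alveolar cell gene Sftpc read 8.66 in WT and 8.90 in Ccr2KO, the club cell gene Scgb1a1 8.42 and 8.57, the collagen gene Col1a1 5.53 and 5.39, the endothelial adhesion gene Pecam1 3.02 and 3.00, the fibroblast receptor gene Pdgfra 4.19 and 4.52, and the epithelial adhesion gene Epcam -0.18 and -0.15. These 6 genes were within 1.5-fold between the arrays. Ptprc, which encodes CD45, was also well above background on both arrays, at 1.54 in WT and 0.45 in Ccr2KO, and its difference was -1.09 ± 0.20. Both pools therefore held leukocyte RNA, the WT pool more of it relative to the rest. The Y-linked gene Ddx3y read 2.30 in both pools.

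Ccr2 itself read 0.09 in WT and -5.07 in Ccr2KO, a difference of -5.16 ± 0.30 that placed it 35.6-fold lower in the knockout. The signal in Ccr2KO was still called above background, at 28.8 against 1251 in WT. The probe's place within the gene was not checked against the deleted part. Ccr2 showed the largest difference in either direction among genes above background on both untreated arrays.

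Genes beside Ccr2 on chromosome 9 were also examined, since a targeted allele brings flanking DNA of its donor strain with it. Of the 33 measured neighbours (30 before Ccr2 and 3 after it, in GRCm38.p6 gene order), 0 were higher and 2 were lower, against 2.21% higher and 3.36% lower among all 16408 genes measured. The lower ones included the eosinophil receptor gene Ccr3 (-2.67 in WT, -3.98 in Ccr2KO, difference -1.32 ± 0.24), which was under 2-fold with normexp background correction, at -0.55. The lymphocyte receptor gene Ccr9, at -2.67 and -3.65, lay just inside 2-fold, and Cxcr6 was not lower, at -0.68 and -0.24. The median absolute difference of the neighbours was 0.21 and that of all genes 0.19.

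Across the 16408 genes above background on at least 1 untreated array, 915 were at least 2-fold apart (5.58%), 363 higher and 552 lower in Ccr2KO, while 14176 lay within 1.5-fold. Levels on the 2 arrays correlated at r = 0.984 across genes, which are not independent replicates. Of the 363 higher genes, 219 were above background on both arrays and 141 had no probe above background in WT; of the 552 lower genes, 333 were above background on both and 216 had none above background in Ccr2KO. The few others had a second probe above background on the dimmer array. Of these genes seen on 1 array, 58 higher and 90 lower ones had a bound of at least 2-fold, and for the rest a 2-fold difference is not shown. Among 118 of the genes apart that had another probe, the other probes gave the same direction in 104 and were also 2-fold apart in 81. Scaling shifted the balance of directions, with 519 higher and 407 lower when arrays were centred on their medians, 108 and 476 in the authors' unscaled table, and 213 and 913 when arrays were scaled to spiked-in control RNA. The median of all genes was 0.05, 0.21, -0.22 and -0.24 under the 75th percentile, the medians, the unscaled table and the spike-ins, so differences are best read relative to that median.

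**Figure D1:**
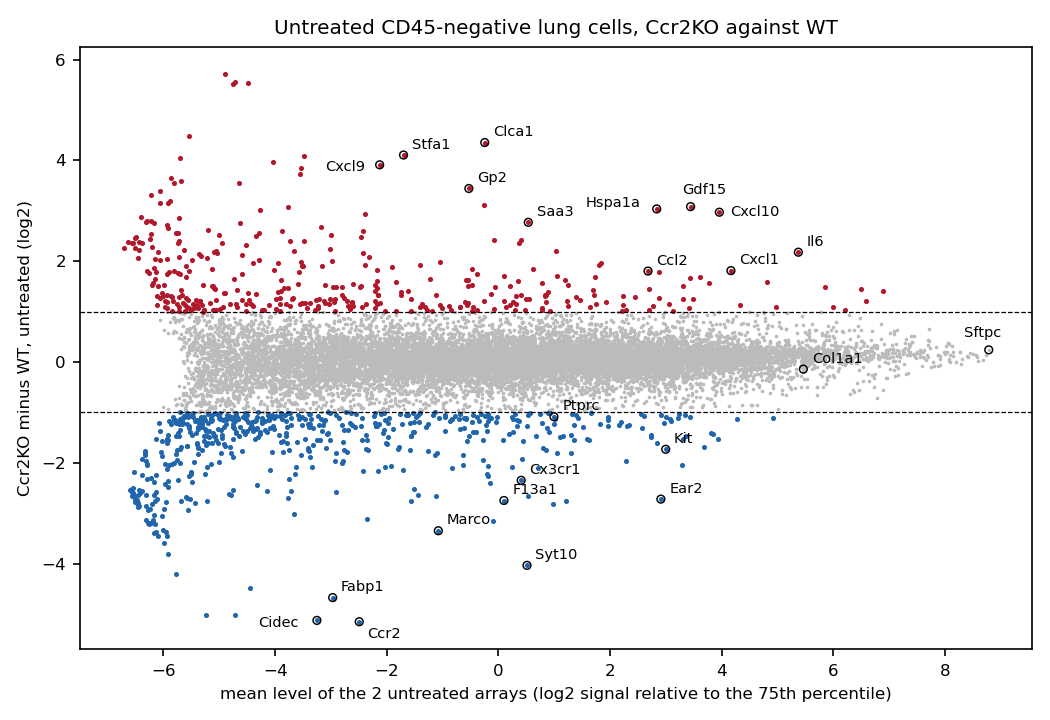
Difference between the untreated arrays (Ccr2KO minus WT, log2) against their mean level (log2 signal relative to the 75th percentile), 1 point a gene, red at least 2-fold higher and blue at least 2-fold lower in Ccr2KO, with the 2-fold limits dashed and some genes circled and named. Most genes lie between the lines, Ccr2 at -5.16 and Fabp1 at -4.68 lie far below, and Il6, Cxcl10, Gdf15 and Hspa1a stand above them at high levels.

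Many leukocyte genes were lower in the knockout pool. Over all leukocyte lists together, 39 of 142 measured genes were lower (27.5%, against 3.36% of all genes) and 8 were higher. In such pooled tissue RNA fewer cells of a type and less RNA per cell cannot be told apart. Of 14 pan-leukocyte genes 6 were lower and 0 higher, with a median difference of -0.89, and 13 of the 14 were below zero. The mean level of the list was 2.53 in WT and 1.71 in Ccr2KO. Cd48, a leukocyte adhesion ligand, read 1.60 and 0.20. Coro1a, an actin regulator of blood cells, read 4.84 and 3.71, and the lysosomal gene Laptm5 1.99 and 0.87. Coro1a, Laptm5 and Ptprc lay so close to 2-fold that centring on the array median put them inside it, at -0.97, -0.96 and -0.93. With that centring 1 of the 14 genes was lower, at a list median of -0.74. Normexp background correction left 5 lower, and 9 were lower in the authors' unscaled table and with spike-in scaling.

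Among 17 monocyte genes 8 were lower and 0 higher (median -0.86, mean level 2.64 in WT and 1.35 in Ccr2KO). Ccr2 is 1 of these 8 and was targeted, so it does not count as evidence on the list. F13a1, the coagulation factor XIII subunit made by monocytes and macrophages, read 1.47 in WT and -1.28 in Ccr2KO (-2.75 ± 0.20). The orphan receptor gene Gpr141 read -2.146 and -5.17 (-3.02 ± 0.30). Cx3cr1, the fractalkine receptor of patrolling monocytes, read 1.58 and -0.77, and its 2 other probes gave -2.50 and -2.44 beside -2.35. Ifitm6 was at 1.77 and -0.34 and the chitinase-like gene Chil3 at 4.32 and 2.27, both lower in the knockout pool. Other members hardly moved. Ms4a4c read 6.02 and 6.16, the matrix proteoglycan gene Vcan -0.80 and -0.94, and Ace, which capillary endothelium also expresses, 3.35 and 3.30.

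Alveolar macrophage genes showed the lowest median of all lists. Of 16 genes 9 were lower and 0 higher, the median was -1.57, and the mean level was 1.5 in WT and 0.00 in Ccr2KO. Fabp1, a fatty acid binding protein gene, read -0.63 and -5.31 (-4.68 ± 0.32), a 25.6-fold difference. Marco, a scavenger receptor of alveolar macrophages, read 0.60 and -2.75 (-3.35 ± 0.21). The eosinophil-associated ribonuclease genes Ear1 and Ear2 read 2.38 and -0.44, and 4.27 and 1.55. Their relative Rnase2a read 2.60 and -0.17, and since the family is nearly identical in sequence the 3 probes may share targets. Siglecf, a sialic acid receptor of alveolar macrophages and eosinophils, read -0.99 and -3.07, and its other probe differed by -3.50. The integrin gene Itgax read 1.64 and -0.06. Members that the lung's own epithelium, endothelium or fibroblasts also express were closer, with Car4 at 4.98 and 5.31 and the protease gene Ctsk at 2.21 and 2.29.

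The interstitial macrophage list was split. Of 15 genes 4 were lower and 1 higher, with a median of 0.27 that was -0.021 with spike-in scaling, and 2 were lower with normexp. The mannose receptor gene Mrc1 read 0.22 and -1.35, the macrophage adhesion receptor gene Adgre1 0.20 and -1.27, and the Fc receptor gene Fcgr1 -2.58 and -4.67. By contrast, the complement genes C1qa, C1qb and C1qc were all nearer to or above equality, with differences of 0.75, 0.36 and 0.68. The lipid carrier gene Apoe, which many cell types express, read 6.05 and 6.92.

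Dendritic cell genes gave 5 lower and 0 higher of 16, with a median of -0.14 that was 0.014 with median scaling. With normexp 2 were lower, and Flt3 stood at -0.89. The lectin gene Cd209a read -1.07 and -3.24, Clec10a -1.45 and -3.20, the cytokine receptor gene Flt3 -1.82 and -3.09, and Clec9a, of cross-presenting dendritic cells, -2.77 and -3.99. The fifth, Ccl22, was not above background in Ccr2KO and was at least 1.47-fold lower. Of 12 MHC class II presentation genes 1 was lower, the lysosomal protease gene Ctss (4.53 and 2.84), whereas Cd74 read 5.97 and 6.04 and H2-Ab1 6.82 and 6.56.

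Within the list of T and NK cell genes the lower members were genes of NK cells, but not all such members were lower. Of 23 genes 5 were lower and 0 higher (median -0.47). They were the receptor genes Ncr1 (-2.30 in WT, -4.39 in Ccr2KO), Klra8 (1.29 and -0.79) and Klrb1c (-0.93 and -2.67), the transcription factor gene Eomes (-2.01 and -3.81) and the granzyme gene Gzma (4.51 and 3.11). Klra8 belongs to a family of near-identical receptors, and its reading may include others. Gzmb, Prf1, Nkg7 and Tbx21, members of the list that NK cells also express, were not 2-fold apart. The T cell receptor component Cd3e read 0.69 and 0.91 and Cd4 2.98 and 3.16, neither of them lower. Among 16 B and plasma cell genes 0 were lower and 1 was higher, the joining chain gene Jchain (1.99 and 3.43).

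Granulocyte genes went 2 ways. Of 15 neutrophil genes 5 were higher and 0 lower, against 2.21% higher among all genes, and the median was 0.53. Those 5 included genes of immature neutrophils. Ngp, a granule protein gene, read -4.68 in WT and -2.28 in Ccr2KO (2.41 ± 0.28), and myeloperoxidase Mpo -4.92 and -2.53 (2.39 ± 0.28). The stefin gene Stfa1 read -3.75 and 0.35 and Stfa2 -1.40 and 0.45, and since stefins form a cluster of near-identical genes the probes may share targets. The protease gene Elane, also of immature neutrophils, was level at 2.78 and 2.83. Genes of mature neutrophils were closer, S100a8 at 3.71 and 4.25, S100a9 at 5.52 and 5.78 and the resistin-like gene Retnlg apart by -0.70. Among 13 mast cell, basophil and eosinophil genes 5 were lower and 1 higher, the 5 becoming 2 with normexp. Prg2, the eosinophil major basic protein, was not above background in WT and was at least 13.3-fold higher in Ccr2KO (-5.43 and -1.69). The receptor tyrosine kinase gene Kit, which lung endothelium also expresses, read 3.86 and 2.13.

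**Figure D2:**
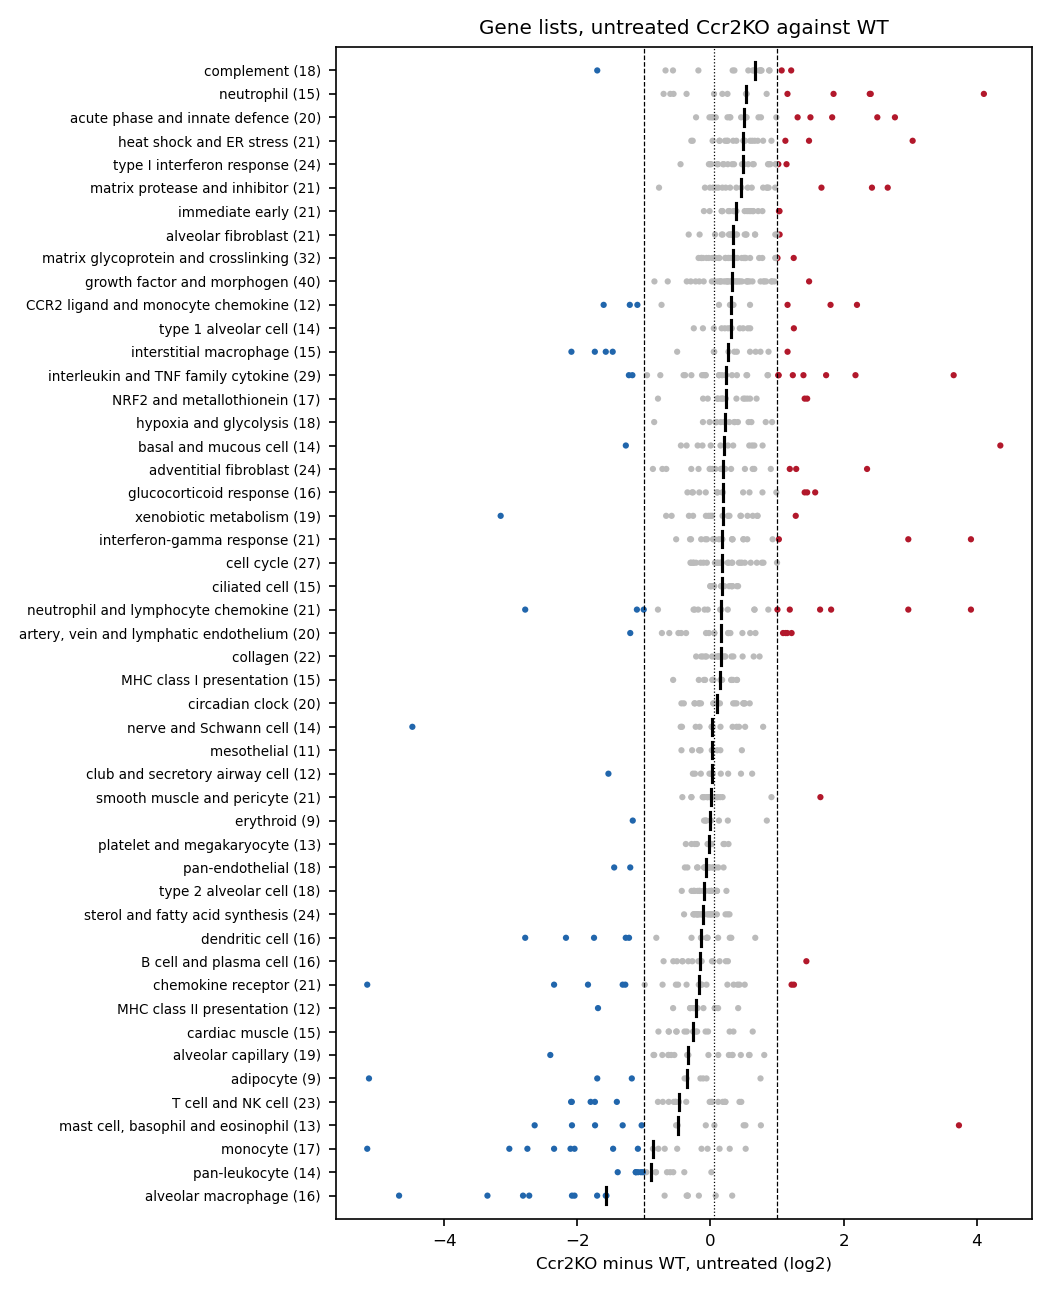
Differences (Ccr2KO minus WT, untreated, log2) of the genes in each list, 1 point a gene, red or blue where at least 2-fold apart, with the list's median as a black bar, the 2-fold limits dashed, the median of all genes dotted and the number of measured genes in brackets. Alveolar macrophage, pan-leukocyte and monocyte genes lie at the bottom with medians of -1.57, -0.89 and -0.86, and complement and neutrophil genes at the top with 0.67 and 0.53.

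Several chemokine and cytokine genes, among them ones that fibroblasts and endothelium can make, were higher in the knockout pool. Promoters of 3 of them are printed, because these genes are textbook targets of NF-kappaB or of interferon signalling and stood far apart between the pools. Each sequence is the 250 bases before the gene's start from RefSeq (GRCm38.p6), 5′ to 3′ on the gene's strand, with the motif match in capitals. The matches are an NF-kappaB motif in Il6 (chr5:30012864-30013113, plus strand) and Cxcl1 (chr5:90890995-90891244, plus strand) and an interferon-stimulated response element in Cxcl10 (chr5:92348890-92349139, minus strand).
Il6: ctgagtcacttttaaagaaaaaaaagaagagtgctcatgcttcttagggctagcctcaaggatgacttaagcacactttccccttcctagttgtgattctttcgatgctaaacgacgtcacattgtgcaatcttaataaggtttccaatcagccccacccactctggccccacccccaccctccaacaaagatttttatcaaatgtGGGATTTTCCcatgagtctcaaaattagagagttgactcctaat
Cxcl1: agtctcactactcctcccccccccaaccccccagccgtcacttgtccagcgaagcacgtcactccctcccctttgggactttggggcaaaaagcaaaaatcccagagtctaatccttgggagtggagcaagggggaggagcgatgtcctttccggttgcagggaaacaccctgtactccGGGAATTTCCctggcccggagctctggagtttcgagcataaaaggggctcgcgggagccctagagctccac
Cxcl10: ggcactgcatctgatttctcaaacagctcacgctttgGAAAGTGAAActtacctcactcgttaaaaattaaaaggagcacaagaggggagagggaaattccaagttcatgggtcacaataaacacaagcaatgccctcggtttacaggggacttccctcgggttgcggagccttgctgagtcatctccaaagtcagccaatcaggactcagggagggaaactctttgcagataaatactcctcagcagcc
The first base of the match lay at -44 in Il6, -71 in Cxcl1 and -213 in Cxcl10, counting back from the base before the start. The NF-kappaB letters, GGGA, any base (N) and TTTCC, sought on both strands, were in 91 of 27025 RefSeq promoters of this length (0.337%), in 52 of the 13002 of measured genes (0.400%), in 4 of the 286 promoters of higher genes (1.40%) and in 2 of the 451 of lower genes (0.443%). The interferon letters, GAAA, any 2 bases (NN) and GAAA, were in 821 of all promoters (3.04%), 362 of those of measured genes (2.78%), 15 of the higher (5.24%) and 23 of the lower (5.10%). No test was made of these shares, and the 3 genes were chosen after their values were seen. Other forms of either motif were not sought, so bases left in lower case, as in Cxcl10, are not shown to lack them.

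Il6, a cytokine that drives the acute phase response, read 4.28 in WT and 6.46 in Ccr2KO (2.18 ± 0.20), a 4.53-fold difference. The interferon-induced T cell chemokine gene Cxcl10 read 2.47 and 5.44 (2.97 ± 0.20). Cxcl9, of the same receptor class, read -4.08 and -0.17 (3.91 ± 0.24), and its other probe differed by 2.37. Cxcl1, a neutrophil chemokine gene, read 3.26 and 5.07 (1.81 ± 0.20). All 4 were above background on both arrays and higher in the knockout pool.

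The genes of 3 CCR2 ligands were higher. Ccl2, the main ligand, read 1.78 in WT and 3.58 in Ccr2KO (1.80 ± 0.20). Ccl7 read -0.07 and 2.14 (2.20 ± 0.20). Ccl12, much dimmer, read -4.37 and -3.22 (1.16 ± 0.27) and was under 2-fold with normexp, in the authors' unscaled table and with spike-in scaling, at 0.66, 0.87 and 0.87. In the list of CCR2 ligands and other monocyte chemokines, these were the 3 higher of 12, and 3 were lower (list median 0.31). The lower ones were Ccl6 (3.64 and 2.03), Ccl9 (1.38 and 0.17) and Ccl3 (2.52 and 1.42), chemokine genes expressed largely by myeloid cells.

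The wider chemokine and cytokine lists were mixed too. Of 21 neutrophil and lymphocyte chemokines 6 were higher and 3 lower (median 0.16; 4 and 1 with normexp, 3 and 3 in the authors' unscaled table), the 3 lower being Ccl22, the stromal homing factor Cxcl12 (5.47 and 4.36) and the lymphocyte chemokine Xcl1 (-2.22 and -3.22). Of 29 interleukin and TNF family genes 7 were higher and 2 lower (median 0.23). The 7 became 1 with normexp, 2 in the authors' unscaled table, and 4 with spike-in scaling or with genes above background on both arrays. Csf3, the granulocyte growth factor G-CSF, was not above background in WT and at least 2.93-fold higher in Ccr2KO. Il10 read -4.65 and -3.25, and its difference was 0.75 with normexp. Both lower genes were leukocyte cytokines, Tnf at -0.28 and -1.45 and oncostatin M, Osm, at -1.12 and -2.35. Il1b, at 3.12 and 2.84, and Cxcl2, at 1.18 and 0.99, were not apart. The 2 list medians turned sign in the authors' unscaled table (-0.12 and -0.11) and with spike-in scaling (-0.13 and -0.061). Among 21 chemokine receptors 5 were lower and 2 higher (3 and 0 with normexp), and the lower ones included, besides Ccr2, Cx3cr1 and Ccr3, the decoy receptor Ackr4 (0.29 and -1.55).

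**Figure D3:**
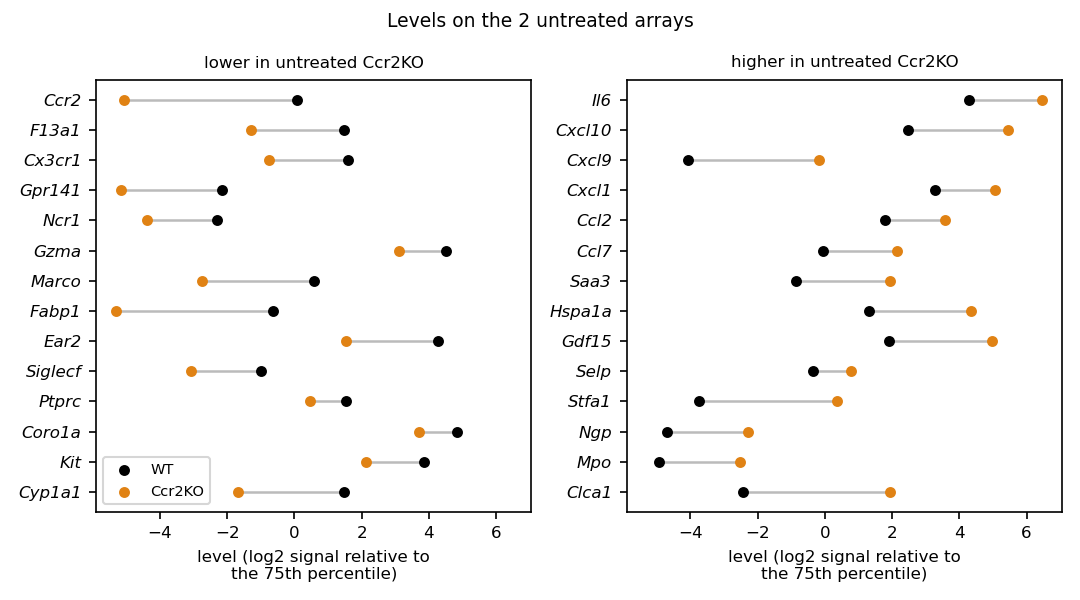
Levels of 28 genes (log2 signal relative to the array's 75th percentile) on the untreated WT array (black) and the untreated Ccr2KO array (orange), 1 array each, joined by a line. On the left are genes lower in Ccr2KO, from Ccr2 (0.09 and -5.07) to Cyp1a1 (1.48 and -1.67), and on the right genes higher in it, from Il6 (4.28 and 6.46) to Clca1 (-2.42 and 1.93).

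Some acute phase genes were higher too. Of 20 acute phase and innate defence genes 5 were higher and 0 lower (median 0.50, mean level 1.22 in WT and 1.96 in Ccr2KO). The median was 0.016 in the authors' unscaled table, 0.20 with spike-in scaling and 0.30 with genes above background on both arrays, and 3, 5 and 3 genes were higher there. The serum amyloid gene Saa3 read -0.85 and 1.92 (2.77 ± 0.20). Its relative Saa2 was not above background in WT and was at least 5.62-fold higher. Saa1 read -0.34 and 0.97, and the siderophore-binding gene Lcn2, at 3.99 and 4.98, lay just inside 2-fold. Of 18 complement genes 2 were higher and 1 lower, and the list's median of 0.67 was the highest of all lists. The 2 higher were C4b (5.98 and 7.19) and C7 (0.25 and 1.32), and the lower was the adipocyte-made factor D gene Cfd (-2.24 and -3.94). In the authors' unscaled table and with spike-in scaling 0 complement genes were higher and 1 was lower, with medians of 0.40 and 0.38. With median scaling 4 were higher.

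The interferon response lists held smaller shares of 2-fold higher genes than the acute phase list. The share over all genes was 2.21%. Of 24 type I interferon response genes 21 were above zero, with a median of 0.48 (0.19 with spike-in scaling, where none was 2-fold apart), but 2 were at least 2-fold higher, Oas2 (1.18 and 2.33) and Ifit1 (0.42 and 1.44). Isg15 read 3.45 and 4.44. Of 21 interferon-gamma response genes 3 were higher, Cxcl9, Cxcl10 and the transcription factor Irf1 (5.70 and 6.73), with a median of 0.18 that was -0.11 with spike-in scaling. None of 15 MHC class I presentation genes was 2-fold apart, and their median was 0.15.

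A few genes known to respond quickly to cell stress were higher, while most genes of these lists were not 2-fold apart. Of 21 heat shock and endoplasmic reticulum stress genes 3 were higher and 0 lower, and 19 lay above zero (median 0.49, mean level 3.26 in WT and 3.84 in Ccr2KO). The inducible chaperone gene Hspa1a read 1.32 and 4.36 (3.04 ± 0.20), and its probe may also read the near-identical copy Hspa1b. The co-chaperone genes Dnajb1 (5.11 and 6.59) and Hsph1 (1.66 and 2.79) were the other two. Among 21 immediate early genes 2 were higher, Egr2 (2.18 and 3.21) and Myc (-0.22 and 0.81), and 19 lay above zero with a median of 0.39. With spike-in scaling the medians of the heat shock and immediate early lists were 0.20 and 0.097, and 2 and 0 genes were higher. The stress cytokine gene Gdf15 read 1.90 and 4.98 (3.08 ± 0.20). The cell cycle inhibitor Cdkn1a read 3.00 and 4.57, and the metallothioneins Mt1 (6.18 and 7.60) and Mt2 (5.77 and 7.22) were higher as well. The part of these stress genes in the higher chemokine, Il6 and acute phase readings was not tested.

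Most epithelial gene lists held few genes 2-fold apart. In lists this short such counts are near the share over all genes, 5.58%. None of 18 type 2 alveolar cell genes and none of 15 ciliated cell genes was 2-fold apart, with medians of -0.10 and 0.17. Of 14 type 1 alveolar cell genes 1 was higher, the growth factor binding protein gene Igfbp2 (2.69 and 3.94), and the receptor gene Ager read 4.07 and 4.63. Of 12 club and secretory airway genes 1 was lower, the airway secretory protein gene Bpifa1 (4.70 and 3.16). Clca1, a secreted protein gene of mucous cells, read -2.42 and 1.93 (4.35 ± 0.21), a 20.4-fold difference and the largest positive difference among genes above background on both arrays. It stood alone in its list, in which 1 of the other 13 genes was lower, the basal keratin gene Krt15 (-1.57 and -2.84).

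Collagen genes were nearly level. None of 22 was 2-fold apart, against 5.58% of all genes, and their median was 0.16. Col1a2 read 6.88 and 7.00 and Col3a1 5.55 and 5.43. Of 21 alveolar fibroblast genes 1 was higher, the transcription factor Tcf21 (1.78 and 2.81), although 19 lay above zero (median 0.34, and 0.047 with spike-in scaling). None was 2-fold higher with normexp, quantile or loess scaling, in the authors' unscaled table or with spike-in scaling, and 3 were with median scaling. Of 24 adventitial fibroblast genes 3 were higher, the phospholipase Pla1a (-0.81 and 1.55), the hyaluronan synthase Has1 (1.80 and 3.09) and the eosinophil chemokine Ccl11 (-0.34 and 0.85). Matrix proteases gave 3 higher of 21, among them the aggrecanase Adamts4 at -0.80 and 1.62 and the collagenase Mmp13 at least 2.0-fold higher, being above background in Ccr2KO alone.

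Shares of endothelial genes 2-fold apart varied by list, against 5.58% of all genes, and differences between vessel types were not tested. Of 18 pan-endothelial genes 2 were lower, the angiopoietin receptor Tek (3.46 and 2.02) and the transcription factor Sox17 (3.56 and 2.36), and the median was -0.07. Of 19 alveolar capillary genes 1 was lower, the apelin receptor Aplnr (1.05 and -1.35), with a median of -0.33. In the authors' unscaled table and with spike-in scaling 4 of the 19 were lower, with a median of -0.62 on each scale. Of 20 genes of arteries, veins and lymphatics 4 were higher and 1 lower (median 0.16, but -0.12 in the unscaled table and -0.13 with the spike-ins). Among the 4 were the leukocyte adhesion genes of inflamed venules Selp (-0.36 and 0.77) and Sele (-2.95 and -1.80), and Ackr1, the chemokine-binding receptor of venules (-2.82 and -1.61). These calls did not hold on other scales: 0 of the 20 genes were higher in the authors' unscaled table or with spike-in scaling, and 1 with normexp. Ackr1 then stood at 0.94, 0.93 and 0.93, Sele at 0.87, 0.86 and 0.93, and Selp at 0.85 and 0.84 on the first pair of scales. Vcam1, another adhesion gene, read 3.81 and 4.72. Beside these, the pan-leukocyte list was lower in the same pool, as given above, and its part in the endothelial differences was not tested.

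Some of the largest differences lay outside the immune and stromal lists. Syt10, a synaptotagmin of calcium-triggered secretion, read 2.53 in WT and -1.51 in Ccr2KO (-4.04 ± 0.20). The aryl hydrocarbon receptor target Cyp1a1, a xenobiotic oxidase that air pollutants and diet induce, read 1.48 and -1.67 (-3.15 ± 0.21). The serpin gene Serpinb10 read -0.79 and -3.91, and the lectin-like receptor Klra2 -0.18 and -2.94. In the other direction stood Gp2, an antigen uptake receptor of mucosal epithelium, at -2.25 and 1.19 (its other probe 3.54 beside 3.44), Ccdc184 at -1.82 and 1.29, Psrc1 at -3.87 and -0.93 and Svopl at -4.52 and -1.84.

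Genes above background on 1 array alone have only a bound. The fat droplet gene Cidec was at least 31.5-fold lower in Ccr2KO, beside 3 lower of 9 adipocyte genes, with Cfd and Car3 the others, Car3 having a bound of 1.77-fold and no difference with normexp (0.0059). With genes above background on both arrays, 1 of 7 was lower. The cardiac transcript Mhrt was at least 10.9-fold lower, though none of 15 cardiac muscle genes was 2-fold apart. Further lower bounds were 7.67-fold for Klk6, 5.93-fold for Sh2d1b1, 5.45-fold for Naip1 and 4.59-fold for the mast cell protease Mcpt2. On the higher side, Mrgprb3, a Mas-related receptor, was at least 16.9-fold higher, the antisense transcript Il1bos 14.6-fold, the substance P precursor Tac1 14.4-fold, Tdrd9 12.4-fold and Emx2os 11.95-fold. Of these, Mhrt, Klk6, Mrgprb3, Tdrd9 and Emx2os were above background on no array but that one.

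The silica pairs show which untreated differences recurred. These pairs share no array with the untreated pair. At day 28, 357 of 16402 genes were 2-fold apart between genotypes (2.18%; 173 higher, 1.05%, and 184 lower, 1.12%), and at day 40, 730 of 16395 (4.45%; 465 higher, 2.84%, and 265 lower, 1.62%). Of the 552 genes lower in untreated Ccr2KO, 68 were lower at day 28 (12.3% of the 552 and 37.0% of the 184) and 60 at day 40 (10.9% and 22.6%), while 30 and 70 were higher. Of the 363 higher genes, 26 were higher at day 28 (7.16% and 15.0%) and 45 at day 40 (12.4% and 9.68%), while 13 were lower at each. Across all genes the differences of the untreated pair correlated with those of day 28 at r = 0.11 and of day 40 at r = 0.10, given as a description.

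Of the 16408 genes, 18 were higher and 18 lower at all 3 times, among them several stefins whose probes may share targets. Some were dim, such as Ptf1a, above background on 2 of the 6 arrays, and Vmn1r82, on 3. The lower ones included monocyte genes, with differences in the order untreated, day 28 and day 40 of -5.16, -2.89 and -1.94 for Ccr2, -2.75, -3.19 and -1.68 for F13a1, and -3.02, -2.13 and -2.63 for Gpr141. Serpinb10 was at -3.12, -2.39 and -2.31. Ptpro, Adgre4 and the dendritic cell lectin Cd209a were others. The higher ones included neutrophil and eosinophil granule genes, with 2.41, 2.73 and 2.42 for Ngp, 2.39, 2.14 and 1.70 for Mpo, and 3.73, 2.18 and 2.20 for Prg2. The stefins Stfa1, Stfa3 and Cstdc5 and the chemokine Cxcl9 (3.91, 1.55 and 1.59) were with them. The cell cycle inhibitor Cdkn2a was higher by 1.58, 2.24 and 2.07, and its other probe by 2.48 in the untreated pair.

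Of other differences, those below did not recur, apart from Ccl2 and Ccl7, which were again at least 2-fold higher at day 40. The alveolar macrophage list, at a median of -1.57 untreated, stood at 0.08 at day 28 and 0.59 at day 40, and Marco went from -3.35 to 1.48 and 2.48. The NK gene Ncr1 went from -2.09 to -0.45 and 0.43, and Klra8 from -2.08 to -0.37 and -0.72. Il6 went from 2.18 to -0.89 and 0.38, Cxcl10 from 2.97 to -0.01 and 0.50, Hspa1a from 3.04 to -0.61 and -0.15, and Gdf15 from 3.08 to -0.96 and -0.59. Ccl2 was 1.80, 0.82 and 1.38, above zero each time, and Ccl7 was 2.20, 0.67 and 1.19.

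**Figure D4:**
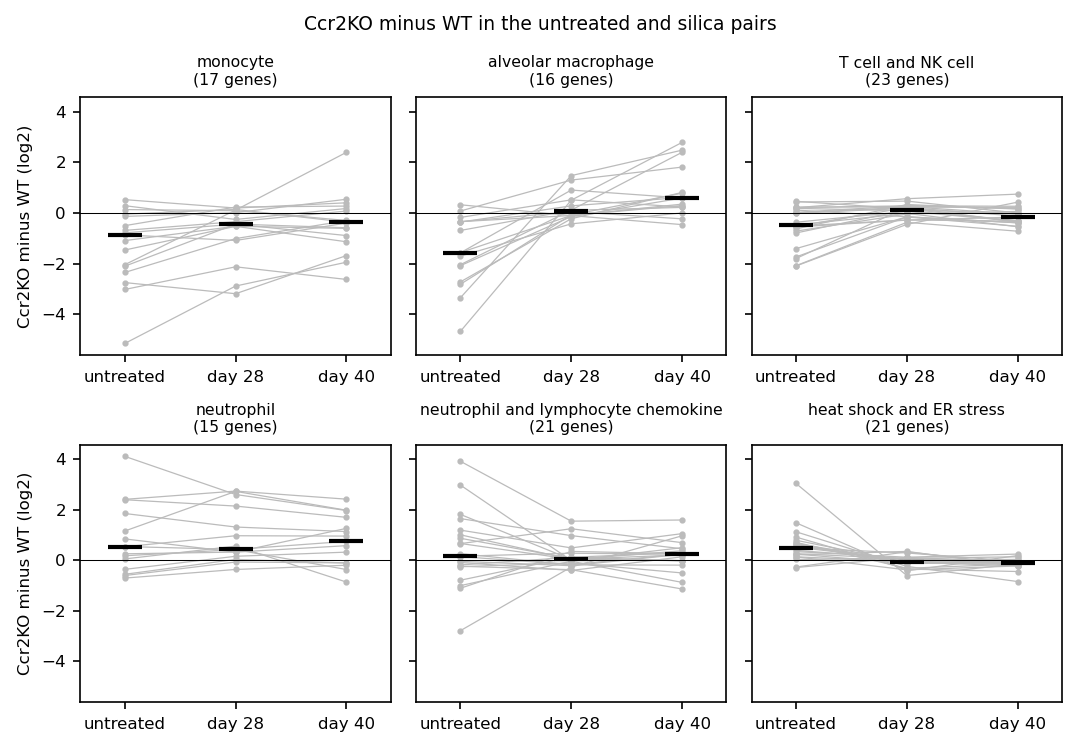
Difference (Ccr2KO minus WT, log2) of each gene of 6 lists in the untreated pair and the pairs at days 28 and 40 after silica, 1 grey line a gene and the list's median as a black bar. The alveolar macrophage median moves from -1.57 to 0.08 and 0.59, while the neutrophil median is above zero in each pair.

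A fit over all 6 arrays gave the test the design allows. With limma, additive in day and genotype on 2 residual degrees of freedom, 0 of 16390 genes passed an adjusted p below 0.05 for Ccr2KO against WT, and 1492 had an unadjusted p below 0.05, 826 higher and 666 lower. The smallest adjusted p was 0.259, for Ngp, and Ccr2 had a fitted difference of -3.33 ± 0.66 with an adjusted p of 0.432. In 3 alternatives 1 gene passed, Prg2 with normexp (1.97 ± 0.09, adjusted p = 0.0105) and Ngp with an intensity trend and robust prior and with genes above background on all 6 arrays (2.52 ± 0.13 and 2.52 ± 0.11, adjusted p = 0.0182 and 0.0397). Prg2 was not above background on the untreated WT array, and its signal there, 27.4, was below the normexp offset. In the first fit its difference was 2.70 ± 0.36, with an adjusted p of 0.394. The part of the offset in its normexp result was not tested, so no recurrence is concluded from that result. Whether the untreated difference departs from that after silica was tested by limma's interaction term, where 0 genes passed, 683 had an unadjusted p below 0.05 and the smallest adjusted p was 0.709. On simulated data the additive fit recovered 94.2% of 8-fold and 27% of 2-fold genotype differences. Those differences were the same at all 3 times, so the shares do not apply to differences that varied between times, as for Ccr2. The interaction fit recovered 0% of either, so the interaction result says nothing about stability. The additive fit tests the genotype difference averaged over the 3 times, the untreated pair included, so passing it is not a test of recurrence. Ngp and, with the limit given, Prg2 passed it in those alternatives. Both were already named above as apart at all 3 times in these same arrays. No recurrence or reversal above was therefore shown by a test.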

How the data were processed

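Total RNA of CD45-negative lung cells was measured on one-colour Cy3 arrays (design 028005). Per the file headers, the authors scanned the arrays and extracted processed intensity with Feature Extraction 11.0.1.1. The authors' deposited table gave log2 values of that intensity for 30574 probes, with no scaling between arrays (largest difference from the scanner values 5e-09), and the submitters' processing notes name R 2.15.1. Its column medians were 9.82 for WT and 9.52 for Ccr2KO untreated.

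Of 62976 spots per array, 59305 were not controls. Outlier spots (141 in WT, 109 in Ccr2KO) were set to missing and none was saturated. Repeated spots were averaged to 55681 probes, and log2 intensity was lowered by the array's 75th percentile (signal 1179 in WT, 969 in Ccr2KO). Well above background were 64.3% of probes in WT and 63.5% in Ccr2KO. RefSeq accessions gave 27509 probes 1 symbol (GRCm38.p6) and left 28172 unnamed. The array's own annotation used mm9, so no array coordinates are printed. Each gene took the value of its brightest probe, above background on at least 1 untreated array. Of 16408 genes, 4291 had several probes.

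A bound ("at least") sets the bright array against the higher of the dim probe's own signal and the lowest signal above background. The number of arrays limits the precision. All 6 arrays lay on 1 slide, with both untreated arrays in row 1. Named genes were the 12 largest differences of each direction above background on both arrays, the 6 largest bounds, the 10 genes of each direction apart at all 3 times, up to 4 members of lists with many genes apart (25% or more), and genes set in advance. Other list members given as examples were chosen after their values were seen. A few genes picked by this rule are not reported here. Members and lists were chosen with earlier results of these data known. Alternatives were normexp (offset 50, on median signals), median, quantile and loess scaling, the authors' table, filters, probe means and folds, and, chosen after seeing the data, scaling to the E1A spike-in probes. Fits used limma 3.58.1 in R 4.3.3 with Benjamini-Hochberg adjustment, leaving out 18 genes with a missing value, and were tested on simulated data.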

Additional observations from a re-analysis of the deposited data

How the results depend on the processing

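Of 85 named genes at least 2-fold apart, 26 were under 2-fold in at least 1 alternative, 22 of them with normexp, and 1 of 894 alternative values changed sign (Car3 with normexp, 0.0059). Counts of higher and lower genes, 363 and 552 as reported, were 150 and 164 with normexp, 219 and 333 with genes above background on both arrays, 604 and 864 with no filter, 145 and 206 at 3-fold, 1059 and 1173 at 1.5-fold, 213 and 913 with the E1A spike-ins, and 108 higher in the authors' table. The median of all genes moved to 0.21 with median scaling, -0.22 in the authors' table and -0.24 with the spike-ins. The spike-in probes above background, 6 of 10, differed in raw signal by 0.0088 ± 0.055 (SD over probes) and the 75th percentile by -0.28, so the choice of scale sets the balance of directions. Quantile and loess scaling, probe means and kept outliers left the counts within 1.5 times. List medians turned sign 8 times in 5 lists. Interstitial macrophages read -0.021 with the spike-ins and dendritic cells 0.014 with median scaling. In the authors' table and with the spike-ins, vessel genes read -0.12 and -0.13, neutrophil and lymphocyte chemokines -0.12 and -0.13, and interleukins and TNF genes -0.11 and -0.061. The limma genotype count, 0, was 1 with normexp, 1 with an intensity trend and robust prior and 1 with genes above background on all 6 arrays, and 0 with quantile scaling, the slide row as a block (1 residual degree of freedom, the same fit as without day 28) and without each time in turn. No pairing of individual replicates was possible because each group has 1 array and replicate numbers pair none of them. The limma fit, additive in day, sets the 2 arrays of a day against each other, and no replicate could be left out. Pooling hides the spread between mice, so no difference of the untreated pair is tested against it. The cause of each change with processing was not tested.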
